A study of Mus musculus with 16 samples.

Results

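The SR splicing factor mRNAs are the transcripts of 10 mouse genes, Srsf1, Srsf2, Srsf3, Srsf4, Srsf5, Srsf6, Srsf7, Srsf9, Srsf10 and Srsf11, taken by their symbols from a table of 14925 genes. They hold 34 of the 30622 rows with a symbol, and these rows are 28 distinct 3′-UTR regions, of which 24 had at least 50 reads over the 8 libraries. The measurements are RNA-immunoprecipitation and sequencing (RIP-seq) with an antibody against CPEB4, an RNA-binding protein of the cytoplasm, in cultures of mouse macrophages (BMDMs) that were differentiated from the marrow of adult animals with L-cell medium. The strain is given as C57BL/6J 129. A wild-type (WT) culture, number 76, and a culture of a full Cpeb4 knockout (KO), number 73, were left untreated or given 10 ng/ml lipopolysaccharide (LPS), a component of the bacterial cell wall, for 9 h. Anti-CPEB4 precipitates (RIP) and whole lysates (Input) gave a library each, of which the labels name rRNA depletion for the Inputs, and the 16 samples are these 8 libraries on lanes 7 and 8. With 1 library in each group no difference has a replicate check, and every test compares 2 libraries and not the conditions. The KO RIP is the antibody control, since the antigen is deleted in every cell of that mouse.

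SR proteins bind exonic enhancers in pre-mRNA through RNA-recognition motifs and recruit the spliceosome through an arginine- and serine-rich domain. Several shuttle to the cytoplasm, where they take part in mRNA export and translation. The genes that encode them often limit their own output through alternative exons or 3′-UTR introns that send the transcript to nonsense-mediated decay (NMD), so that 1 gene can carry productive and NMD 3′-UTRs. CPEB4 binds cytoplasmic polyadenylation elements (CPEs), which are U-rich motifs of the 3′-UTR, and controls the poly(A) tail and stability of the mRNAs that hold them.

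The CPE letters searched were TTTTAT or TTTTAAT or TTTTAAAT, and also TTTTACT or TTTTCAT or TTTTAAGT, on the sense strand of each 3′-UTR, as DNA, with overlapping matches counted separately. All 10 SR genes held at least 1 match in the region with the most reads, against 64.8% of all 14925 genes, a share not matched for length. Among genes with a region within 20% of the length, the share with a match ran from 39.1% for Srsf9 to 96.9% for Srsf1. It was 79.8% or more for Srsf1, Srsf3, Srsf6, Srsf7, Srsf10 and Srsf11. The 4 matches of Srsf6 were reached by 52.3% of genes of like length. Srsf9 stood apart in density. Its 361-base region, in exon 4 of 4 at chr5:115332720-115333080 on the plus strand of GRCm38.p6 (the mm10 coordinates of the tables), held 6 matches, and 0.161% of 1241 genes with a region within 20% of that length held at least as many. Srsf4, with a 634-base region in exon 6 of 6 at chr4:131901073-131901706, held 3, a number reached by 13.3% of 1703 genes of like length. A window at the 3′ end of the Srsf9 region is shown because this mRNA had the largest input-corrected ratios, together with the windows of the distal part of the Srsf11 3′-UTR, whose share of the reads is given with that gene. The Srsf9 window lies past the end of a shorter 290-base form of the region, in a stretch that held only 0 to 2 reads per library. Nearly all Srsf9 reads thus fell in the 290-base form, which holds the other 5 matches. These 5 are all TTTTAT and lie close together in a single stretch, where some share a base, so they are not spread over the region. Capitals mark the CPE letters.
Srsf9, chr5:115333054-115333080, plus strand: cagaaatataTTTTAAATgtttagtaa
Srsf11, chr3:158011345-158011371, minus strand: gttgttcactTTTTCATagctacttat
Srsf11, chr3:158011193-158011220, minus strand: tggtggtgcaTTTTAAATtgaccttcat
Srsf11, chr3:158011139-158011164, minus strand: gataatgtacTTTTATttgatctcaa
Neither ATTTA, the core of AU-rich elements, nor a poly(A) signal (AATAAA or ATTAAA) occurs in the Srsf9 region. Srsf4 also lacks ATTTA, while Srsf10 and Srsf1 hold 11 and 10 copies. A match is a description of the letters and not a measured binding site.

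The 3′-UTR reads per library, summed over all rows with a symbol, ranged from 467696 in the untreated KO RIP to 2492300 in the WT RIP with LPS. A read in several identical or nested rows counts once in each, so these sums exceed the distinct reads. Over distinct coordinates, in which nested regions still overlap, they were 390566 and 2121354. The sums over all rows were 27.3% and 31.8% of the library total in the KO RIPs and 48.9% and 70.1% in the WT RIPs. In the Inputs they were 46.4% to 51.1%. These percentages are not the share of distinct reads that fell in 3′-UTRs. Ratios between WT and KO RIPs depend on whether 3′-UTR reads or library totals are taken as the scale. Levels are given as CPM, which scales a region to the sum over all rows with a symbol, and between genes as RPKM, the same per kilobase. Cpeb4 itself was at 130 and 136 CPM in the WT Inputs, 52.0 and 52.6 in the KO Inputs, 836 and 770 in the WT RIPs and 257 and 367 in the KO RIPs. These are 3′-UTR reads, and which part of the gene was deleted is not given in the sources used here, so they need not be lost in the KO. The 7 macrophage markers summed to 2357 to 3518 CPM in the Inputs and those of T cells to 2.15 to 9.05, and the 5 LPS-response genes went from 39.2 to 51.7 untreated to 1498 to 1657 with LPS.

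**Figure D1:**
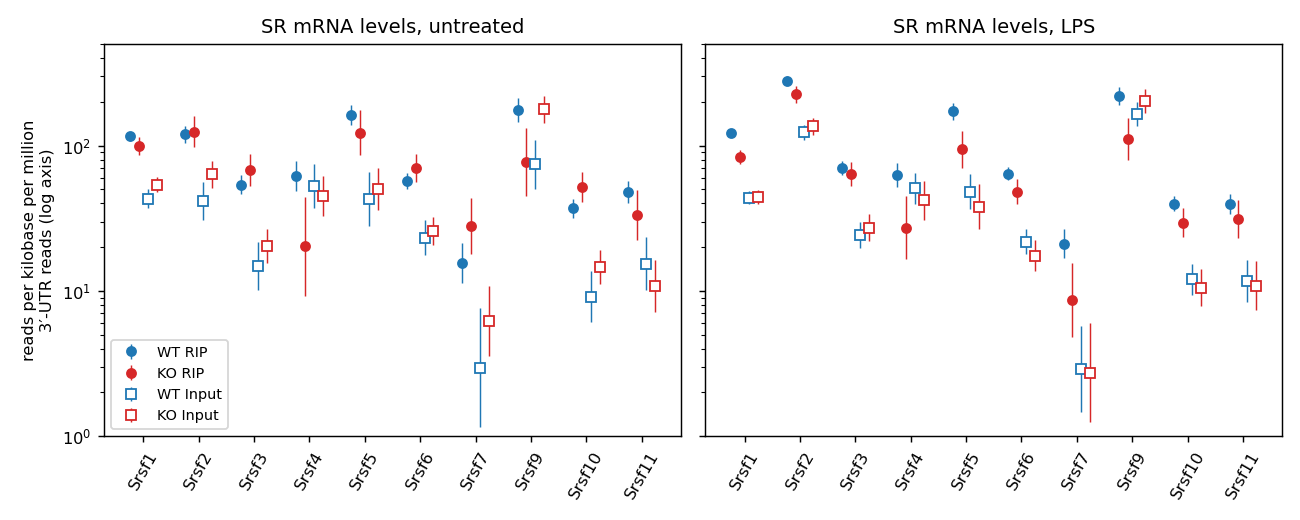
Level of each SR mRNA (region with the most reads) in the 8 libraries, as RPKM of the 3′-UTR reads on a log axis, untreated on the left and with LPS on the right, with 95% Wilson intervals of the counts. Filled circles are RIPs and open squares Inputs. For 8 genes both RIPs lie above both Inputs in each panel, and for Srsf4 and Srsf9 the KO RIP lies below the KO Input.

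In the region with the most reads of each gene, Srsf9 had the highest level per length in every Input and Srsf7 the lowest. This order depends on the region taken. The 411-base region of Srsf1 had 162 and 200 RPKM in the untreated WT and KO Inputs, above the 361-base region of Srsf9. The 310-base region of Srsf2 had 243 and 275 with LPS, also above it. The 2221-base region of Srsf1 was at 77.1 to 93.7 RPKM over the 4 Inputs. The values that follow are for the regions with the most reads. Srsf9 (SRp30c, a splicing regulator of small size) had 74.5 and 178 RPKM in the untreated WT and KO Inputs, and 165 and 203 RPKM with LPS. Srsf2 (SC35, a protein of nuclear speckles) ranged from 41.6 RPKM in the untreated WT Input to 136 over the 4 Inputs. Srsf4, Srsf1 and Srsf5 were at 42.0 to 52.6, 43.1 to 53.8 and 38.0 to 50.3 RPKM. These ranges overlap with each other, so these genes have no settled order in these regions. Srsf2 lay above them with LPS, at 123 RPKM in the WT Input and 136 in the KO Input. Its range over the 4 Inputs overlaps theirs through the untreated WT Input. Srsf6 at 17.5 to 25.8 and Srsf3 at 14.9 to 27.2 also overlap, as do Srsf11 at 10.8 to 15.4 and Srsf10 at 9.09 to 14.7. Srsf7 (9G8, an adaptor of mRNA export) was at 2.74 to 6.20 RPKM, with only 4 to 12 Input reads, so each of its ratios is poorly determined.

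Most SR mRNAs were recovered above their Input level with and without the antigen. In the WT, 9 of 10 were called higher in RIP than in Input untreated, where 23.5% of 8360 genes were, and 8 of 10 with LPS, where 25.1% of 8766 were. In the KO, 8 of 10 were called higher untreated and 8 of 10 with LPS, against 14% of 7708 and 15.6% of 7861 genes. A call needs, by a two-sided chi-square test of the reads, a Benjamini-Yekutieli adjusted p under 0.02 with a log2 ratio past 0.5, or an unadjusted p under 0.02 with a log2 ratio past 1.2. None was called lower in any of the 4, where 21.3%, 28%, 8.99% and 11.8% of genes were in the same order. The median SR log2 ratio of RIP over Input was 1.54 in the WT and 1.37 in the KO untreated, and 1.53 and 1.26 with LPS, while the medians of all genes tested lay between -0.03 and 0.03. On library totals the calls in the KO came to 3 higher and 2 lower untreated, against 4.13% and 34.5% of genes, and to 0 higher and 2 lower with LPS, against 5.05% and 35.3%.

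**Figure D2:**
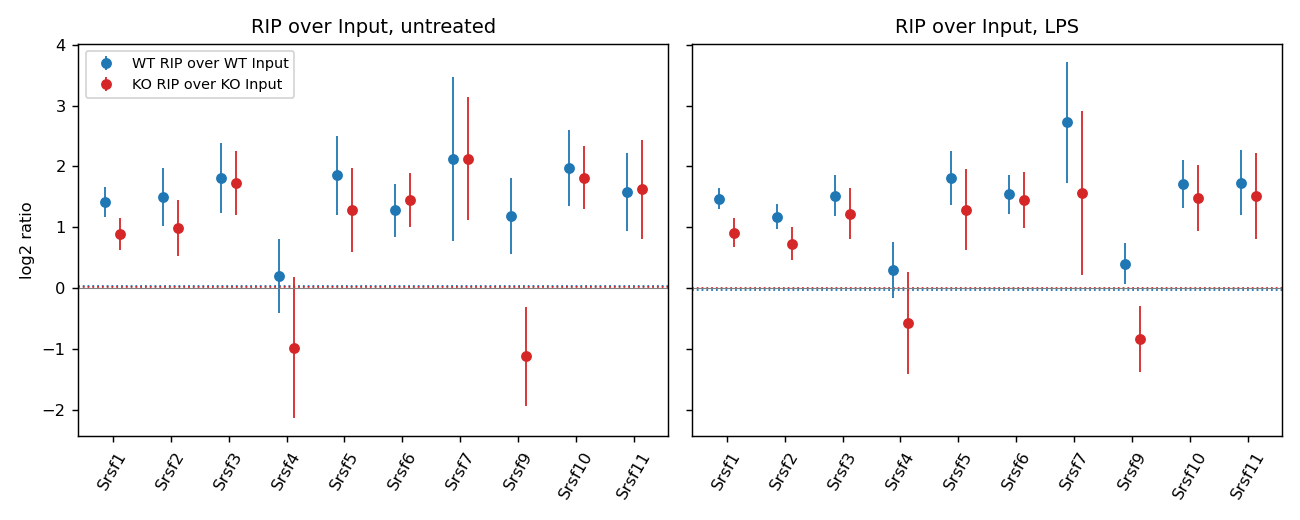
Log2 ratio of RIP over Input for each SR mRNA in the WT (blue) and the KO (red), with 95% intervals from the read counts. Dotted lines are the medians of all genes. Both genotypes lie above 0 for 8 genes, whereas the KO ratios of Srsf4 and Srsf9 are -0.97 and -1.12 untreated and -0.57 and -0.84 with LPS.

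The 8 genes recovered from the KO were Srsf1, Srsf2, Srsf3, Srsf5, Srsf6, Srsf7, Srsf10 and Srsf11. Srsf3 (SRp20, which links splicing and 3′ end choice) had 133 CPM in the untreated KO RIP and 39.97 in the KO Input, and 105 and 29.1 in the WT. Its log2 ratio of RIP over Input was 1.73 in the KO and 1.81 in the WT (95% interval 1.23 to 2.38). Srsf6 (SRp55) had 167 CPM in the untreated KO RIP, 61.1 in the KO Input, 135 in the WT RIP and 54.9 in the WT Input, and log2 ratios of 1.45 in the KO and 1.28 in the WT. Srsf10 (a splicing repressor) had a level of 141 CPM in the KO RIP, 39.97 in the KO Input, 101 in the WT RIP and 24.8 in the WT Input, and its log2 ratios were 1.81 and 1.97. The WT minus KO differences of these ratios were 0.08 (-0.69 to 0.86), -0.17 (-0.80 to 0.45) and 0.16 (-0.65 to 0.96), with intervals that include 0.

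Base composition moved with this recovery. The regions of the 8 genes had a GC content of 32.2% to 36.8%, Srsf9 had 41.0% and Srsf4 had 48.9%. Over all genes, those under 40% GC had a median KO log2 ratio of RIP over Input of 0.85 untreated (1909 genes) and 0.89 with LPS (2003 genes), and the others -0.22 and -0.24. Across genes within these library pairs, Spearman's rho of GC content with the ratio was -0.57 and -0.61 for KO libraries and -0.72 and -0.75 for WT libraries, a description over 7708 to 8766 genes that share the libraries and are not independent. In the ratio of the WT RIP over the KO RIP, rho was -0.26 untreated and -0.40 with LPS. Its part in the SR values was not tested.

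Between the RIPs, few SR mRNAs were called. Untreated, 1 of 10 was called higher in the WT RIP than in the KO RIP, where 6.7% of 8065 genes were, and with LPS 3 of 10, where 10.6% of 8309 were. None was called lower in its region with the most reads, against 9.32% and 14.9% of genes. The untreated call was Srsf4 and those with LPS were Srsf1, Srsf5 and Srsf9, so no SR gene was called in both treatments. On library totals, which raise every such ratio by 0.84 untreated and 1.14 with LPS, 6 of 10 and 10 of 10 were called, as were 33.6% and 53.1% of genes, and TMM scaling gave 2 and 8, against 12.1% and 21.4% of genes.

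To set the RIPs against the Inputs, the log2 ratio of WT over KO in the Inputs was subtracted from that in the RIPs. The median of this input-corrected ratio over the 10 SR genes was 0.33 untreated and 0.48 with LPS, and the median over all genes that reached 10 reads in all 4 libraries was -0.05 (4471 genes) and -0.07 (5478 genes). Srsf7 was under that minimum in both treatments and Srsf4 untreated. The interval lay above 0 for 2 SR genes untreated and 3 with LPS, where 19.7% and 20% of genes had such an interval, and below 0 for none, where 21.8% and 26.2% had. The 2 genes untreated were Srsf1 and Srsf9, and with LPS Srsf2 joined them. All 10 values lay above 0 with LPS and 7 of 10 did untreated, the genes under the minimum included, where 46.9% and 47.6% of genes did.

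**Figure D3:**
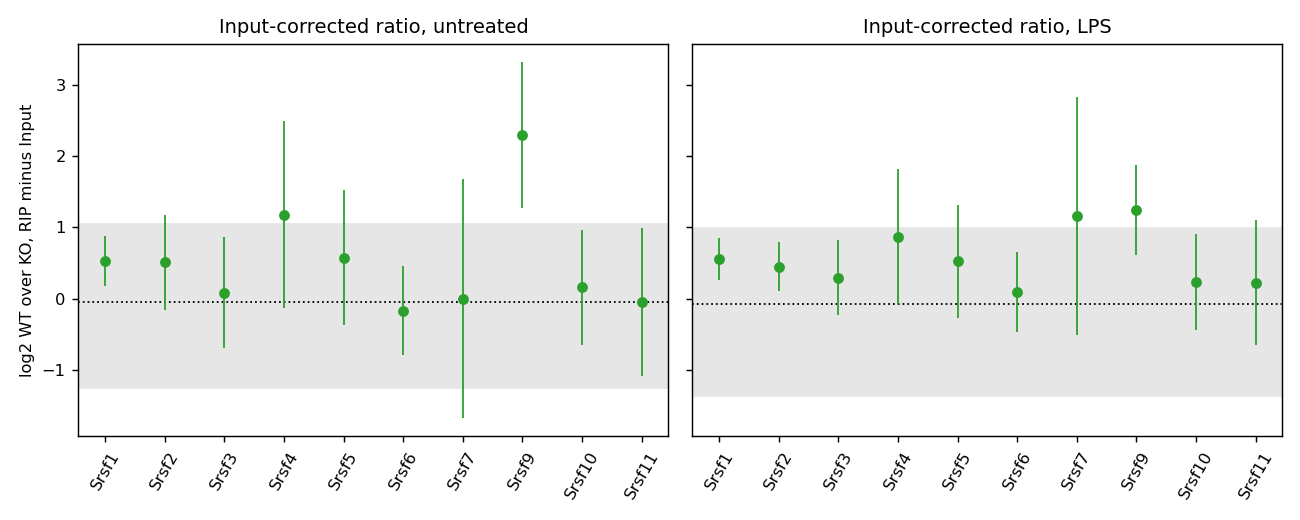
Input-corrected log2 ratio of WT over KO for each SR mRNA with its 95% interval from the read counts. The grey band spans the 10th to the 90th percentile of all genes that reached 10 reads in all 4 libraries, and the dotted line is their median. Srsf9 lies above the band at 2.30 untreated and 1.24 with LPS. Srsf4 untreated, at 1.18, and Srsf7 with LPS, at 1.16, also lie above it, both under the read minimum and with intervals that include 0.

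Srsf9 had the largest input-corrected ratio of the 10 in both treatments, with an interval that overlaps those of others. Untreated, it was at 63.0 CPM in the WT RIP (105 reads), 27.8 in the KO RIP (13 reads), 26.9 in the WT Input (25 reads) and 64.1 in the KO Input (85 reads). With LPS it was at 79.0, 40.2, 59.6 and 73.2 CPM in the same order, from 197, 35, 113 and 110 reads. The WT RIP was thus the higher RIP and the KO Input the higher Input in both treatments. RIP exceeded Input in the WT, by a log2 ratio of 1.19 untreated (adjusted p = 0.00288) and 0.40 with LPS (adjusted p = 0.279, not called), and lay below it in the KO, at -1.12 (-1.93 to -0.30) and -0.84 (-1.38 to -0.30), neither of which was called. Between the RIPs, WT over KO was 2.13-fold untreated (log2 1.09, 0.28 to 1.89, adjusted p = 0.243) and 1.92-fold with LPS (log2 0.94, 0.43 to 1.46, adjusted p = 0.0103). In the Inputs it was called lower in the WT untreated, at a log2 ratio of -1.21 (-1.85 to -0.58, chi-square p = 8.28e-05, adjusted p = 0.083), where 1.45% of 7845 genes were called lower, and not with LPS, at -0.30 (-0.68 to 0.08). The untreated call rests on a ratio just past the limit of 1.2 and was lost with TMM (-1.19), with median-of-ratios scaling and in edgeR's exact test. No other SR gene was called between the Inputs, against 0.854% of genes higher untreated and 1.46% in each direction with LPS. The input-corrected ratio was therefore 2.30 untreated (1.28 to 3.32), higher than in 99.8% of genes, of which the RIPs gave 1.09, and 1.24 with LPS (0.61 to 1.88), higher than in 94.7%. The shorter 290-base region of the gene, nested in this one and sharing nearly all its reads, gave 2.39 and 1.23, and with 12 reads in the untreated KO RIP and 85 in the KO Input it was called lower there (log2 -1.22, -2.06 to -0.38, chi-square p = 0.00211, adjusted p = 0.101). The 361-base region was also called lower in the KO RIP untreated with TMM scaling, and in each treatment with Benjamini-Hochberg adjustment (11.3% and 14.6% of genes).

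Srsf4 (SRp75, a large SR protein) resembled Srsf9 in that its KO RIP lay below its KO Input, at log2 ratios of -0.97 untreated and -0.57 with LPS. Neither was called, and unlike for Srsf9 both intervals included 0. It was at 39.0 CPM in the untreated WT RIP (65 reads), 12.8 in the KO RIP (6 reads), 33.4 in the WT Input and 28.7 in the KO Input. With LPS it was at 39.7, 17.2 (15 reads), 32.1 and 26.6. The KO RIP was thus the lowest of the 4 libraries in both treatments, and the WT RIP was the highest by little. Between the RIPs, WT over KO was 2.65-fold untreated (log2 1.40, 0.28 to 2.53), called by its size with a chi-square p = 0.00608 and an adjusted p of 0.324, and 2.19-fold with LPS (log2 1.13, 0.37 to 1.89, adjusted p = 0.0811, not called). Input-corrected, it was 1.18 (-0.13 to 2.49) and 0.87 (-0.08 to 1.82), and both intervals reach 0. An antisense transcript, Gm12992, overlaps the region on the other strand, and reads of the pair cannot be told apart where strand was not kept.

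Srsf1, Srsf2 and Srsf5 were called higher in RIP than in Input in both genotypes, with input-corrected ratios of about the same size and of unequal certainty. Srsf1 (SF2/ASF, the founding SR protein) was the best measured, with 480 CPM in the untreated WT RIP, 413 in the KO RIP, 179 in the WT Input and 223 in the KO Input. With LPS the values were 504, 347, 182 and 184. Both RIPs stood well above both Inputs and the WT RIP was the higher one. WT over KO was 1.16-fold between the RIPs untreated (log2 0.21, -0.02 to 0.44, adjusted p = 1) and 1.45-fold with LPS (log2 0.54, 0.36 to 0.72, adjusted p = 7.27e-07), and the input-corrected ratio was 0.53 (0.17 to 0.88) and 0.55 (0.26 to 0.84). Srsf5 (SRp40) was at 85.2 and 64.1 CPM in the untreated RIPs of WT and KO, and at 90.3 and 49.3 with LPS, a 1.80-fold difference (log2 0.84, 0.38 to 1.31, adjusted p = 0.0133). Input-corrected, Srsf5 gave 0.57 and 0.52 with intervals that reach 0, from 20.0 to 26.4 CPM in the Inputs. Srsf2 gave 0.51 (-0.15 to 1.18) untreated and 0.44 (0.10 to 0.79) with LPS.

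In their regions with the most reads Srsf3, Srsf6, Srsf10 and Srsf11 showed input-corrected ratios of 0.08, -0.17, 0.16 and -0.05 untreated and of 0.29, 0.09, 0.24 and 0.22 with LPS, with intervals that all include 0. Untreated, the log2 ratio of WT RIP over KO RIP was below 0 on 3′-UTR reads for Srsf2, Srsf3, Srsf6, Srsf7 and Srsf10, at -0.87 to -0.08, and above 0 on library totals for each of these but Srsf7, so it has no settled sign for Srsf2, Srsf3, Srsf6 and Srsf10. Srsf7 moved most between treatments. It had 38 and 19 reads in the untreated RIPs of WT and KO and 77 and 11 with LPS, and the log2 ratio was -0.87 (-1.65 to -0.09) and 1.18 (0.31 to 2.06). The difference of these, 2.05 (0.88 to 3.23), gave an adjusted p of 0.264 by a normal test of the reads adjusted over 4460 genes, of which 0.807% passed, and no SR gene passed it.

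With LPS, Srsf2 rose in all 4 kinds of library. It went from 44.1 to 131 CPM in the WT Input, from 67.1 to 144 in the KO Input, from 127 to 296 in the WT RIP and from 133 to 239 in the KO RIP. Every library with LPS exceeded every untreated library of the same assay. The changes were 2.90-fold (log2 1.54, 1.07 to 2.01, adjusted p = 1.7e-09), 2.13-fold (log2 1.09, 0.73 to 1.44, adjusted p = 5.12e-08), 2.32-fold (log2 1.21, 0.99 to 1.43, adjusted p = 1.46e-26) and 1.78-fold (log2 0.83, 0.43 to 1.24, adjusted p = 0.00246). Mettl23 overlaps the Srsf2 region on the opposite strand, so its reads could be among these. In the WT Input 2 of 10 SR genes were called higher with LPS, where 13.7% of 8163 genes were, and 1 each in the KO Input (14.4%), the WT RIP (13.8%) and the KO RIP (12.2%). None was called lower in the Inputs and the WT RIP, where 16.5%, 20% and 22% of genes were.

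**Figure D4:**
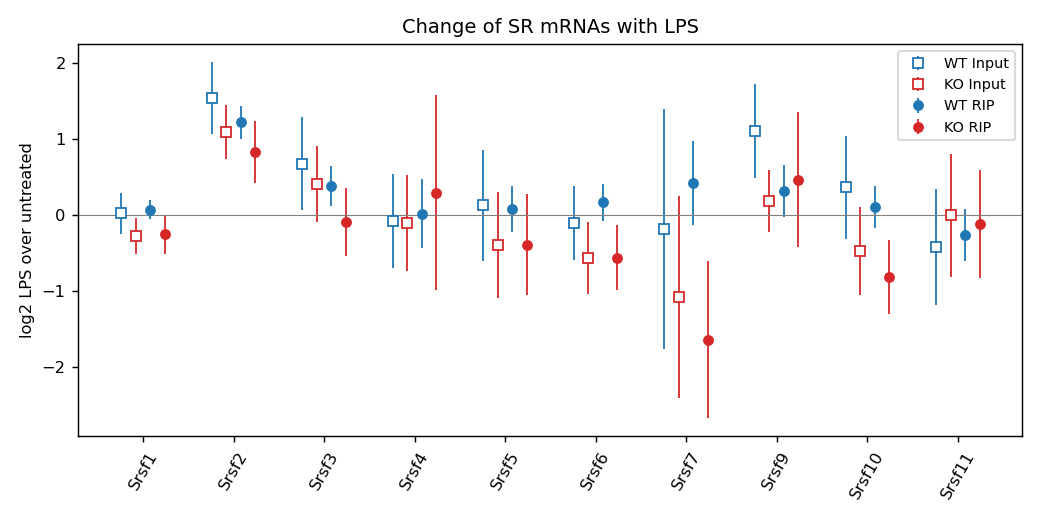
Log2 ratio of LPS over untreated for each SR mRNA in the Inputs (open squares) and RIPs (filled circles) of WT (blue) and KO (red), with 95% intervals from the read counts. Srsf2 lies above 0 in all 4, from 0.83 to 1.54, and Srsf1 lies between -0.28 and 0.07.

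The second call in the WT Input was Srsf9, which rose 2.15-fold with LPS (log2 1.10, 0.49 to 1.72, adjusted p = 0.0104) and was at 0.19 in the KO Input (-0.22 to 0.59). The difference between genotypes, 0.91 (0.18 to 1.65), had an adjusted p of 1 over 5468 genes and was not called. Srsf7 fell in the KO RIP with LPS, from 40.6 to 12.6 CPM (log2 -1.63, -2.67 to -0.60, chi-square p = 0.0011, adjusted p = 0.0497), where 16.8% of 7227 genes were called lower, which rests on 19 and 11 reads. With a minimum of 50 reads in the pair it was not tested. The other SR mRNAs were not called with LPS in any library, and Srsf1 in the Inputs had log2 ratios of 0.02 in the WT and -0.28 in the KO.

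Srsf11 (p54, an SR-related protein with roles near the 3′ splice site) ends in a 1536-base 3′-UTR at chr3:158010473-158012008 on the minus strand, in exon 13 of 13. A shorter region of 506 bases, chr3:158011503-158012008, shares its start. Reads of the longer region that miss the shorter are here called distal, and the 3 CPE windows printed above lie in that part, with no match in the proximal 506 bases. Of the distal reads 0 or 1 per library lay beyond the 1090-base form, so nearly all fell between the 506-base and the 1090-base end. The parts differ in base composition as well, since the proximal 506 bases had 43.9% GC and the 1090-base form that contains them 37.5%. Neither the CPE letters nor the GC content was tested for a part in the distal share. In the untreated RIPs the distal part held 84 of 122 reads in the WT, 68.9% (95% Wilson interval 60.2% to 76.4%), and 6 of 24 in the KO (12.0% to 44.9%). The untreated Inputs had 31.8% distal in the WT (7 of 22) and 45.5% in the KO (10 of 22). With LPS the distal share was 66.4% in the WT RIP (101 of 152), 57.1% in the KO RIP (24 of 42), 38.2% in the WT Input (13 of 34) and 52.0% in the KO Input (13 of 25). The WT RIPs thus had the highest distal share in both treatments, and only the untreated KO RIP lay far below its WT counterpart.

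**Figure D5:**
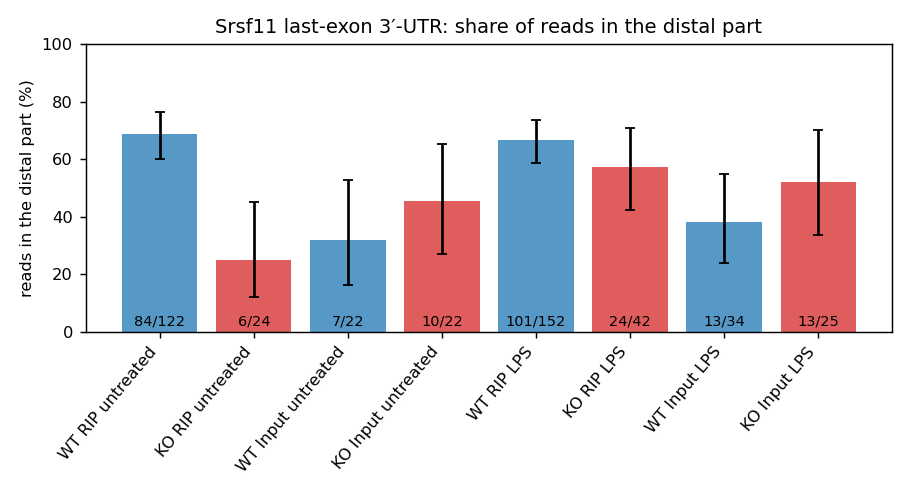
Share of the reads of the 1536-base Srsf11 3′-UTR that fall in its distal part, in percent, for the 8 libraries, with 95% Wilson intervals and the reads behind each bar. The WT RIPs stand at 68.9% and 66.4%, and the other libraries at 57.1% or below.

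The log2 ratio of ratios for distal against proximal reads was 2.56 between the untreated RIPs of WT and KO (1.2 to 3.93, Fisher's exact p = 0.000128, adjusted p = 0.0545) and 0.58 with LPS (-0.41 to 1.56). Between WT RIP and WT Input it was 2.12 untreated (0.78 to 3.46, adjusted p = 0.118) and 1.62 with LPS (0.54 to 2.70, adjusted p = 0.16), and in the KO -1.2 and 0.29 with intervals that include 0. None of these passed the adjusted threshold of 0.02 over all region pairs. Of the 11 SR pairs tested between the untreated RIPs none was called, against 0.99% of 2424 pairs, and 3 had an unadjusted p under 0.05. Of 10 pairs with LPS none was called, against 1.96% of 2859, and 2 had such a p. The share of all pairs with such a p was not computed, here or in the comparisons below, so these counts have no background. Pairs of the same gene share the reads of its reference region and are not independent. The lowest adjusted p between the RIPs, 0.0249 untreated, was that of the last exon against a 49-base region at chr3:158019391-158019439, a log2 ratio of ratios of 3.44 (1.79 to 5.08). This short region had 4 reads in the WT RIP and 10 in the KO RIP, and on its own it was called lower in the WT RIP (log2 -2.97, adjusted p = 0.00138). It is annotated as 3′-UTR of an NMD transcript, and all its 49 bases are coding in another Srsf11 transcript. Its reads thus cannot be assigned to a 3′-UTR form.

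Of the pairs between RIP and Input, 2 were called, both of Srsf11. With LPS, the last-exon region was favoured in the WT RIP over the WT Input against a 21-base region at chr3:158022930-158022950 (log2 ratio of ratios 3.24, 1.75 to 4.74, adjusted p = 0.0016) and against a 40-base region at chr3:158022013-158022052 (2.71, 1.32 to 4.11, adjusted p = 0.0154), where 11.3% of 3219 pairs were called. None of the SR pairs was called in the untreated WT, the untreated KO or the KO with LPS, where 6.73%, 2.82% and 5.83% of pairs were, and 2, 3 and 4 SR pairs had an unadjusted p under 0.05 by Fisher's exact test. In the WT with LPS 6 of 11 SR pairs had such a p, the 2 called ones included. Both short regions are annotated as 3′-UTR of NMD transcripts, and all their bases are coding in other Srsf11 transcripts, so reads of the forms cannot be told apart. They had 5 to 12 reads each in the WT RIP and Input, and with at least 25 reads required of each region neither was tested. In the KO with LPS the first of these ratios was 2.73 (0.77 to 4.68, adjusted p = 0.168).

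Few reads fell on the separate NMD regions of Srsf5 and Srsf3. The 251-base NMD region of Srsf5, chr12:80947131-80947381 in exon 3 of 4, of which 71 bases are coding in another transcript, had 9, 6, 2 and 8 reads in the untreated WT RIP, KO RIP, WT Input and KO Input and 4, 8, 1 and 2 with LPS, beside 21 to 225 reads of the productive region. Its share of the reads of both was 1.75% in the WT RIP and 15.7% in the KO RIP with LPS, and the ratio of ratios in favour of the productive region was 3.21 (1.56 to 4.85, Fisher's exact p = 0.000203, adjusted p = 0.0671), which was not called. Untreated, it was 1.69 (0.19 to 3.19, adjusted p = 1). On its own, the 251-base region was called lower in the WT RIP than in the KO RIP with LPS, from 4 and 8 reads. Of all genes, 14.9% were called lower there in their region with the most reads. The 422-base NMD region of Srsf3, in the exon known as a poison exon, had 2 to 10 reads in every library, beside 27 to 342 reads of its last exon, and its pairs were not called. The NMD regions of Srsf2 and Srsf1 lie inside the productive 3′-UTR and cannot be counted apart from it.

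Srsf10 has 2 separate last exons. The region with the most reads, 2722 bases at chr4:135867187-135869908, held 54.8% to 65.3% of the reads of both in the Inputs and 53.4% to 63.1% in the RIPs, and the ranges of the assays overlap. The other, 1789 bases at chr4:135864027-135865815, had 236 reads in the WT RIP and 41 in the KO RIP with LPS, a log2 ratio of 0.98 (0.51 to 1.45, adjusted p = 0.00191) that was called, where the 2722-base region had 0.42 (0.04 to 0.79, adjusted p = 0.677). Input-corrected, the 1789-base region gave 0.17 untreated and 0.98 (0.12 to 1.85) with LPS. The difference between the regions, -0.56 (-1.17 to 0.04), was not called by Fisher's exact test (adjusted p = 1). No SR pair was called with LPS against untreated or between the Inputs, where 0.0982% to 0.71% and 0% of pairs were, and 3 of the LPS pairs and none of the Input pairs had an unadjusted p under 0.05.

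Partners of the SR proteins were taken from 3 lists. Of the 10 SR kinases and importer, 9 had enough reads for the test between the RIPs, with a median input-corrected ratio of 0.60 untreated (5 genes that reached 10 reads in all 4 libraries) and -0.18 with LPS (7 genes). Srpk2, a cytoplasmic SR kinase, was called higher in the WT RIP with LPS (log2 0.99, 0.45 to 1.53), and Clk1, a nuclear kinase, lower untreated (-1.61, -2.52 to -0.70). Of 25 SR-related splicing factors, 23 were tested, 0 were called higher in either treatment, 3 were called lower untreated and 1 with LPS, where 6.7% and 10.6% of all genes were called higher and 9.32% and 14.9% lower. The 3 were Tra2a (-1.28), Luc7l3 (-1.08) and Snrnp70, the last also with LPS. The median input-corrected ratio was -0.41 untreated (16 genes) and -0.04 with LPS (19 genes), against 0.33 and 0.44 for the SR genes under the same minimum (8 and 9 genes). Snrnp70, a protein of the U1 particle, was called lower in the WT RIP in both treatments, at -1.71 (-2.53 to -0.90) and -1.52 (-2.27 to -0.76). Luc7l2, another U1 factor, had an input-corrected ratio of -0.38 untreated and 0.57 (0.08 to 1.06) with LPS.

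The 4 export and decay factors had median input-corrected ratios of -0.28 and -0.64. Nxf1, the main mRNA export receptor, was called lower in the WT RIP in both treatments. It had 106 reads in the WT RIP and 80 in the KO RIP untreated and 83 and 120 with LPS, with log2 ratios of -1.43 (-1.85 to -1.01) and -2.04 (-2.44 to -1.64). Input-corrected, Nxf1 gave -1.17 untreated and -2.34 with LPS, and Upf1, the helicase of NMD, gave -0.88 (-1.50 to -0.25) and -1.12 (-1.67 to -0.57). Among the splicing factors Srrm2 gave -0.72 and -0.69 and Thrap3 0.10 and -0.44, while Srrm1 gave -0.90 and 0.16, Son 0.41 and -0.04, and the kinase Dyrk1a 0.80 (0.12 to 1.48) and 0.60 (0.04 to 1.15). On library totals the input-corrected ratios of Nxf1 and Snrnp70 stayed below 0, at -0.34 and -0.57 untreated and at -1.14 and -0.42 with LPS, whereas Upf1 gave -0.05 and 0.08, Srrm2 0.11 and 0.51 and Thrap3 0.93 and 0.75, so the sign depends on the scale for Srrm2 in both treatments and for Upf1 and Thrap3 with LPS, and also for Son with LPS (1.16) and Luc7l2 untreated (0.45).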

How the data were processed

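The deposited tables give, per Ensembl 3′-UTR region, read counts of 8 libraries, in which the authors had summed the lanes, and RPKM values of the authors, which use library totals. Per the methods, the authors aligned reads to mm10 with Bowtie2 2.2.2, removed duplicates and counted reads over 3′-UTRs. Whether strand was kept is not given in the sources used here. Further columns hold the authors' own fold changes, p-values, peak scores and CPE predictions, and were not used as results. Read counts as deposited were scaled to the sum over rows with a symbol. The 495 rows without one held 0.902% to 1.04% of reads and were left out.

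For ratios, 1 read was added to each library. No ratio is given where both had 3 or fewer reads. Reads of a region were set against all other 3′-UTR reads by a two-sided Pearson chi-square test, and p was adjusted after Benjamini-Yekutieli across all regions that reached 10 reads in the pair. A gene is given by its region with the most reads. Rows overlap and are not independent. Region pairs within a gene were compared by Fisher's exact test on at least 10 reads of each. Input-corrected ratios were also tested against 0 by a normal test of the reads. Intervals cover counting error only, and the depth of the KO RIPs sets their width. The tests were tried on simulated data. Tools were Python 3.11.15, scipy 1.17.1, edgeR 4.0.16 and DESeq2 1.42.0, the last for median-of-ratios scaling only. Sequences and annotation are GRCm38.p6 with GENCODE M21. Other windows of the Srsf9 and Srsf4 regions are not reported here. Reads shared with pseudogenes of SR genes were not resolved.

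The members, gene lists and tests were chosen with earlier results of these data known. The text names all SR genes, Cpeb4, and of the partner lists those called in the same direction in both treatments, otherwise the 4 with the largest and the 4 with the smallest input-corrected ratio with LPS among genes for which all 4 LPS libraries held 50 reads or more. Srpk2, Clk1, Tra2a and Luc7l3 were named after their values were seen.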

Additional observations from a re-analysis of the deposited data

Results flagged for a closer look

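The ratio of RIP over Input differed between WT and KO beyond counting error, by a normal test of the reads with Benjamini-Yekutieli adjustment over all genes that reached 10 reads in all 4 libraries, for Srsf9 untreated, by 2.30 on the log2 scale (adjusted p = 0.00131), for Srsf9 with LPS, by 1.24 (adjusted p = 0.00702), and for Srsf1 with LPS, by 0.55 (adjusted p = 0.0101). The same test passed 13.5% of genes untreated and 20.6% with LPS. For Srsf9 untreated the Inputs moved as well, at a log2 WT over KO ratio of -1.21, and their part in the value was not tested. With 1 library per group, the genotype, the culture and the library cannot be told apart.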

How the results depend on the processing

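Among the alternatives tried, the scale mattered most. The counts of SR genes called higher between WT and KO RIPs were 1 untreated and 3 with LPS. They became 6 and 10 on library totals (33.6% and 53.1% of genes), 2 and 8 with TMM (12.1% and 21.4%), and with LPS 6 under median-of-ratios (15.2%) and 5 with Benjamini-Hochberg (13.2%). On library totals RIP over Input in the KO gave 3 untreated and 0 with LPS in place of 8 and 8, with 2 called lower in each in place of 0, and the change of the WT RIP with LPS gave 7 (26.6% of genes), with TMM 4 (22.2%) and with median-of-ratios 2 (18.9%), in place of 1. The median input-corrected ratio with LPS was 1.68 on library totals and 0.84 with TMM in place of 0.48, and untreated 1.16 and 0.54 in place of 0.33, since these scales raised all genes, by 1.2 and 0.36 with LPS and by 0.83 and 0.21 untreated. In edgeR's exact test with its variation preset at 0.4, which allows for spread between replicates, the counts fell to 0 for WT over KO RIP in both treatments, for RIP over Input untreated in WT and KO and with LPS in the KO, and for all 4 changes with LPS, and to 1 for RIP over Input with LPS in the WT. Between the untreated RIPs this setting called only 0.36% of all genes higher, and a count of 0 among 10 genes is near that share. Its shares of all genes in the other comparisons are not given here, so those counts have no background beside them. Of the region pairs, the 2 called for RIP over Input became 0 with at least 25 reads and 6 with Benjamini-Hochberg, and the 0 called for WT over KO became 3 with Benjamini-Hochberg and 1 among separate regions alone. The shares over all pairs at these settings were not computed, so these counts have no background beside them. Of the single values and counts of lower calls, 35 moved, a count by over 1.5 times or a ratio beyond its counting interval, and 121 did not. The untreated Input call of Srsf9 was lost with TMM, median-of-ratios and edgeR. No replicate could be left out, since each group was 1 library. No paired analysis was possible because the replicate numbers of the labels are lanes of 1 library, which the tables hold summed. The KO RIPs, with 6 to 35 reads of Srsf4 and Srsf9, limit the precision of their ratios.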
